A study of Mus musculus with 23 samples.

Results

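Transcripts of 6 Fc receptor genes were followed in bulk RNA-seq of mouse brain. They were Fcgr1, Fcgr3, Fcgr2b, Fcer1g, Fcrls and Fcgrt, chosen by symbol from 22310 named genes, with Fcgrt included as a broadly expressed comparison. All 6 were among the 16209 genes that passed the filter on low counts. The mice, of strain C57BL/6J, had wild-type (WT) Csf1r or the Csf1R-G793A allele, which substitutes 1 residue of the receptor for colony-stimulating factor, and were on their chow for 14 days. The groups were WT mice on PLX3397 (290 mg/kg, 4 libraries), WT mice on PLX5622 (1200 mg/kg, 4 libraries), G793A mice on PLX3397 at 290 mg/kg (4 libraries), G793A mice on PLX5622 at 1200 mg/kg (4 libraries), G793A mice on control chow (4 libraries) and WT mice on control chow (3 libraries). PLX3397 and PLX5622 are inhibitors of CSF1R, the receptor kinase on which microglia depend for survival, and the design asks whether the substitution prevents their effects. The labels give the tissue only as brain and name no region, sex or age, and nothing in them says whether libraries came from different animals. The spread behind each p-value is that between libraries and could be technical.

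Fc gamma receptors bind the constant region of IgG and link antibody to the uptake and signalling machinery of phagocytes. Fcgr1, the high-affinity receptor, and Fcgr3, a low-affinity receptor, activate through Fcer1g, the common gamma chain, whose ITAM recruits the kinase Syk. Fcgr2b is the low-affinity inhibitory receptor and carries an ITIM of its own. Fcrls is an Fc receptor-like gene used as a marker of mouse microglia. Fcgrt encodes the neonatal Fc receptor, which pairs with beta-2-microglobulin and recycles IgG and albumin from endosomes.

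The receptor genes are related in sequence, which bears on how reads were assigned between them. Fcgr2b and Fcgr3 are both on chromosome 1, and the longest coding run that they have in common was 129 bases, in the spliced transcripts Fcgr2b-201 and Fcgr3-201 of GENCODE M21 (GRCm38). It is shown, in transcript direction, because reads that fall within it cannot be assigned to 1 of the genes.
Fcgr2b and Fcgr3, common coding run: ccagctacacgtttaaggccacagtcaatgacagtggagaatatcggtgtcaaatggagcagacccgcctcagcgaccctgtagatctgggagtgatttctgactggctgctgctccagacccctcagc
Of all 31-base words in the transcripts of Fcgr3, 13.4% also occurred in Fcgr2b, and 4.15% of those of Fcgr2b occurred in Fcgr3. No 31-base word of Fcgr1, Fcer1g or Fcrls occurred in another gene. In the deposited estimated counts, Fcer1g and Fcrls were whole numbers in 23 of 23 libraries, whereas Fcgr2b was whole in 0 of 23, Fcgr3 in 5 of 23, Fcgrt in 7 of 23 and Fcgr1 in 9 of 23. Counts that are not whole thus also occurred in Fcgr1, which had no word in common with another gene. The values of Fcgr2b and Fcgr3 are uncertain by any reads that were divided between them.

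The promoters of the members were searched for GAGGAA, the core letters of the site of the myeloid factor PU.1, on either strand (read as TTCCTC on the other) in the 250 bases before the gene start in RefSeq (GRCm38.p6). It occurred in 3 of 6 members and in 25.9% of 27025 genes. Windows of 30 bases around the match are shown for those 3 members, with the match in capitals, in the direction of the gene (minus strand in each case).
Fcgr3, chr1:171059404-171059433: ggttaagcaagagagtccatttccTTCCTC
Fcrls, chr3:87263651-87263680: caagtctgtaaaGAGGAAggacgtttgctt
Fcgr1, chr3:96294007-96294036: atggcaacttccTTCCTCttttctaatctt
The 250 bases searched overlapped a GENCODE M21 exon of the gene itself in each member except Fcgr1, so they hold some transcribed sequence there. A match of 6 letters is a description of these windows and is not evidence of binding.

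Libraries summed to 26.3 to 48.2 M estimated counts, and the members had between 13.3 and 1049 counts in a library. Levels are given as CPM, counts scaled to 1 M per library, and, between genes, as CPM per kilobase of the median coding transcript in GENCODE M21. Transcript lengths of one gene vary, so the order of genes is approximate. In WT controls the level per kilobase was 16.7 ± 1.28 for Fcrls (SD, n = 3), 12.9 ± 1.34 for Fcgrt, 8.88 ± 1.18 for Fcgr3, 7.54 ± 1.12 for Fcer1g, 2.44 ± 0.307 for Fcgr2b and 1.14 ± 0.0803 for Fcgr1. The mean ± SD ranges of Fcgr3 and Fcer1g overlapped, and their difference within libraries was not tested. In G793A controls the level of Fcrls was 15.8 ± 1.696 CPM per kilobase (n = 4), within the spread of Fcgrt at 14.96 ± 1.599. In WT mice on PLX3397, Fcgrt stood highest at 11.9 ± 0.378 CPM per kilobase, followed by Fcrls at 3.41 ± 0.533. In WT mice on PLX5622, Fcgrt stood at 11.7 ± 0.414 CPM per kilobase, while Fcgr3 at 1.46 ± 0.430, Fcer1g at 1.34 ± 0.580 and Fcrls at 1.34 ± 0.953 lay within each other's spread.

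Both inhibitors went with lower transcripts of the IgG receptors, the gamma chain and Fcrls in WT brain, and Fcgrt did not pass the test. With PLX3397, 5 of 6 members fell against WT controls, where 1.49% of all genes tested fell. With PLX5622, 5 of 6 fell, where 1.59% of all genes fell. The same 3 WT control libraries serve both comparisons. The level left in the 5 members was 20.4% to 37.9% of that in WT controls with PLX3397 and 8.24% to 26.8% with PLX5622. In all 5, every inhibitor library lay below every control library, which held for 6.12% of all genes with PLX3397 and 5.26% with PLX5622. In bulk tissue, fewer cells of a type and less RNA per cell cannot be told apart.

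Among the activating receptors, Fcgr3 stood at 3.54, 3.54, 2.32 and 1.92 CPM in WT mice on PLX3397 and at 2.09, 1.12, 2.46 and 2.06 CPM in WT mice on PLX5622, against 13.6, 10.9 and 10.8 CPM in WT controls. The inhibitor libraries were the low ones, without overlap. Its log2 fold change was -2.05 ± 0.20 (SE) with PLX3397 (edgeR quasi-likelihood test, adjusted p = 4.76e-07) and -2.59 ± 0.21 with PLX5622 (adjusted p = 1.28e-08). Fcgr1 stood at 1.07, 0.939, 1.02 and 0.764 CPM in WT mice on PLX3397 and at 0.882, 0.545, 0.913 and 0.803 CPM in WT mice on PLX5622, against 2.99, 2.73 and 3.15 CPM in WT controls. Its groups did not overlap either, and its log2 fold changes were -1.64 ± 0.17 with PLX3397 (edgeR adjusted p = 9.7e-07) and -1.90 ± 0.18 with PLX5622 (edgeR adjusted p = 6.13e-08).

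The gamma chain Fcer1g, on which Fcgr1 and Fcgr3 depend for surface expression and signalling, stood at 1.19, 1.53, 1.05 and 0.934 CPM in WT mice on PLX3397 and at 1.35, 0.613, 1.13 and 0.545 CPM in WT mice on PLX5622, against 5.98, 4.84 and 4.53 CPM in WT controls. The control and inhibitor libraries did not overlap. The log2 fold change was -2.11 ± 0.22 with PLX3397 (edgeR adjusted p = 9.63e-07) and -2.48 ± 0.23 with PLX5622 (edgeR adjusted p = 5.88e-08).

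The inhibitory receptor Fcgr2b stood at 1.44, 1.96, 1.02 and 1.19 CPM in WT mice on PLX3397 and at 1.21, 0.443, 0.630 and 0.860 CPM in WT mice on PLX5622, against 4.06, 3.18 and 3.89 CPM in WT controls. It had the smallest fall of the 5 members with PLX3397, -1.40 ± 0.22 on the log2 scale (edgeR adjusted p = 0.000263), and stood at -2.21 ± 0.23 with PLX5622 (edgeR adjusted p = 5.24e-07). Fcrls stood at 5.71, 5.69, 4.70 and 4.10 CPM in WT mice on PLX3397 and at 3.88, 0.511, 1.54 and 1.98 CPM in WT mice on PLX5622, against 25.6, 26.0 and 22.6 CPM in WT controls. It had the largest fall of the 6 with each inhibitor, -2.29 ± 0.26 with PLX3397 (edgeR adjusted p = 1.03e-05) and -3.60 ± 0.29 with PLX5622 (edgeR adjusted p = 4.98e-08). Within WT mice on PLX5622, the library of replicate 2 was the lowest for Fcgr1, Fcgr2b, Fcgr3 and Fcrls. The 5 calls in each comparison held when any 1 library was left out.

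Fcgrt stood at 14.1, 14.7, 14.0 and 13.7 CPM in WT mice on PLX3397 and at 14.2, 13.8, 13.3 and 14.4 CPM in WT mice on PLX5622, against 17.1, 14.3 and 14.5 CPM in WT controls. These ranges overlapped, and its log2 fold change was -0.12 with PLX3397 (95% interval -0.28 to 0.04, edgeR adjusted p = 0.765) and -0.14 with PLX5622 (95% interval -0.30 to 0.02, edgeR adjusted p = 0.711).

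**Figure D1:**
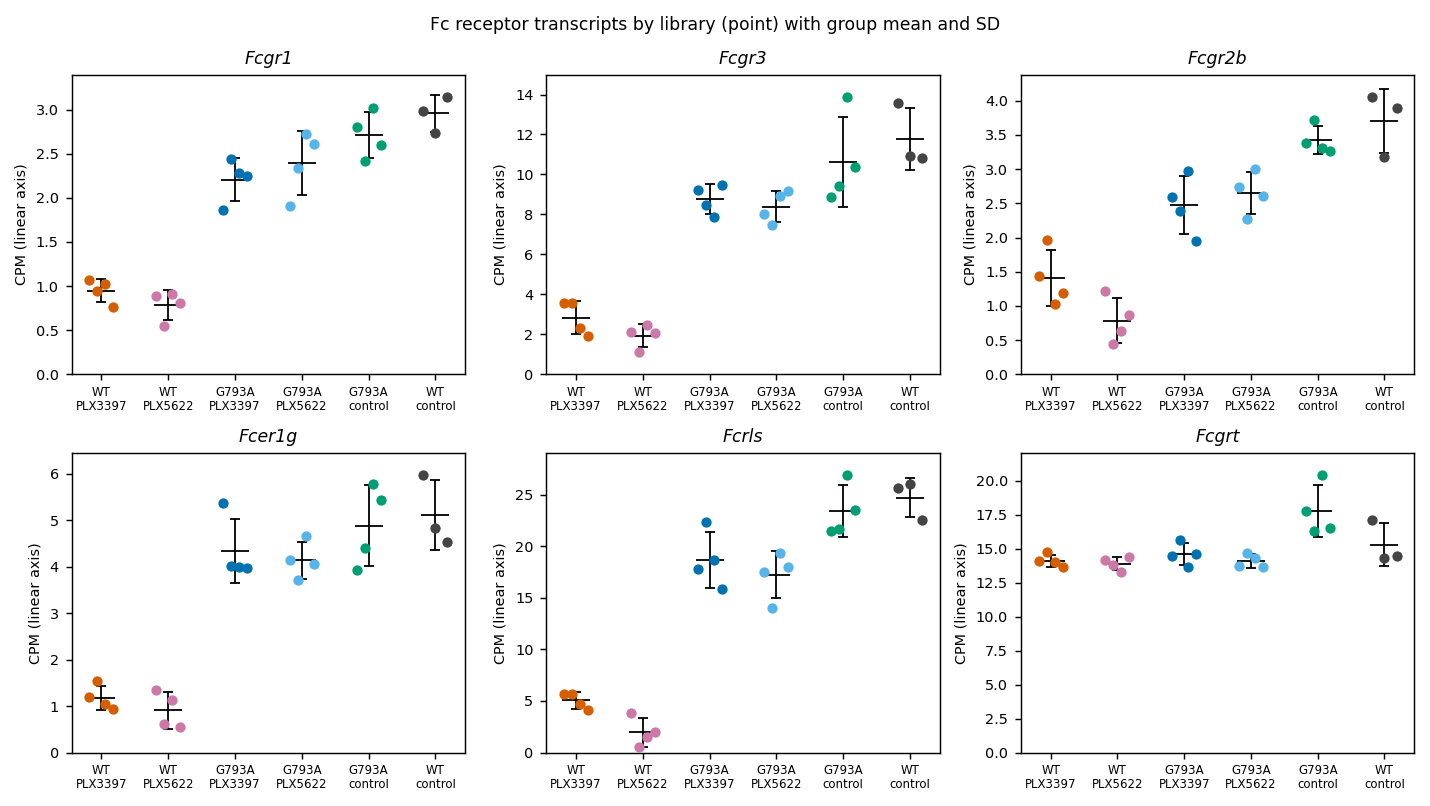
CPM of each member by library (points) with the group mean and SD (bars), on linear axes that start at 0 and differ in scale between genes. Fcgr1, Fcgr3, Fcgr2b, Fcer1g and Fcrls lie low in WT mice on PLX3397 or PLX5622, with Fcrls between 0.511 and 5.71 CPM there against 22.6 to 26.0 CPM in WT controls, while Fcgrt lies between 13.3 and 20.4 CPM in all 23 libraries.

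With the substitution, no member passed the test between inhibitor and control chow. In G793A mice on PLX3397, 0 of 6 members passed the edgeR test against G793A controls, where 0.00617% of all genes did. In G793A mice on PLX5622, 0 of 6 passed, where 0.0% of all genes did, and 1 passed when the G793A control library of replicate 2 was left out. At an unadjusted p under 0.05 the counts were 2 of 6 members with PLX3397 and 1 of 6 with PLX5622. Among all 16209 genes, the counts were 1899 with PLX3397 and 2639 with PLX5622. DESeq2, limma-voom and limma on the authors' log2 values called 0 of 6 in either comparison. The unadjusted 95% interval of the log2 fold change lay wholly below 0 for Fcgr2b with PLX3397 (-0.87 to -0.05) and for Fcgrt with PLX3397 (-0.43 to -0.13) and PLX5622 (-0.48 to -0.18). For Fcrls it ran from -0.79 to 0.15 with PLX3397 and from -0.91 to 0.03 with PLX5622.

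Fcgr3 stood at 9.22, 8.46, 7.85 and 9.49 CPM in G793A mice on PLX3397 and at 8.03, 7.48, 8.90 and 9.15 CPM in G793A mice on PLX5622, against 8.88, 9.40, 13.9 and 10.4 CPM in G793A controls. Fcer1g stood at 5.37, 4.01, 4.00 and 3.96 CPM with PLX3397 and at 4.14, 3.71, 4.66 and 4.05 CPM with PLX5622, against 3.93, 4.402, 5.78 and 5.44 CPM in G793A controls. Both genes overlapped between the inhibitor groups and their controls, as did Fcgr1, at 1.86 to 2.44 CPM with PLX3397 and 1.91 to 2.73 CPM with PLX5622, against 2.42 to 3.02 CPM in G793A controls.

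Fcgr2b did not overlap, at 2.59, 2.39, 2.98 and 1.94 CPM in G793A mice on PLX3397 and 2.74, 2.27, 3.00 and 2.61 CPM in G793A mice on PLX5622, against 3.39, 3.72, 3.32 and 3.27 CPM in G793A controls. Its log2 fold change was -0.46 ± 0.20 with PLX3397 (edgeR adjusted p = 0.392) and -0.37 ± 0.20 with PLX5622 (edgeR adjusted p = 0.361). Genes whose groups lay apart in the lower direction made up 2.12% of all genes with PLX3397 and 2.83% with PLX5622, where 2 of 6 members and 3 of 6 members did. The other members apart were Fcgrt with both inhibitors and Fcrls with PLX5622, at 17.5, 14.0, 19.3 and 18.02 CPM in G793A mice on PLX5622, against 21.5, 21.7, 26.9 and 23.5 CPM in G793A controls.

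Fcgrt stood at 14.5, 15.6, 13.7 and 14.6 CPM in G793A mice on PLX3397 and at 13.7, 14.7, 14.3 and 13.6 CPM in G793A mice on PLX5622, against 17.8, 16.3, 20.4 and 16.5 CPM in G793A controls. The controls were the higher set in both comparisons. The log2 fold change was -0.28 ± 0.07 with PLX3397 (edgeR adjusted p = 0.316) and -0.33 ± 0.07 with PLX5622 (edgeR adjusted p = 0.147), and without the G793A control library of replicate 2 it was -0.37 with PLX5622 (edgeR adjusted p = 0.0167), where 980 of all genes then passed. G793A controls against WT controls gave 0.21 ± 0.08 for Fcgrt (edgeR adjusted p = 0.358), with overlapping libraries.

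On control chow, G793A and WT brains did not differ past the threshold in any of the 6 members. In G793A controls against WT controls 0 of 6 passed the edgeR test, where 0.0% of all genes did. Only Fcgrt had an unadjusted p under 0.05, against 1803 of all 16209 genes, and limma-voom and DESeq2 called 0 of 6. The log2 fold changes of Fcgr1, Fcgr2b, Fcgr3, Fcer1g and Fcrls ran between -0.15 and -0.07, with 95% intervals between -0.59 at the lowest and 0.42 at the highest, and each of the 6 members overlapped between the groups, where 2.91% of all genes lay apart as lower and 2.71% as higher. Against WT controls, G793A mice on either inhibitor also had 0 of 6 members called, where 0.00617% of all genes were called with PLX3397 and 0.0% with PLX5622. All 6 log2 fold changes were negative in each, and limma-voom and DESeq2 called 0. In each, 3 of 6 members had an unadjusted p under 0.05, against 1173 (PLX3397) and 1095 (PLX5622) of all 16209 genes. The comparisons with WT controls share those 3 libraries. Fcgr1, Fcgr2b, Fcgr3 and Fcrls lay below every WT control library in both, where 4.11% and 3.86% of all genes did so with PLX3397 and PLX5622. Fcgr2b stood at -0.58 ± 0.21 with PLX3397 and -0.48 ± 0.21 with PLX5622. The mean log2 CPM of 8 microglia genes, the panel described with the relative levels, differed from WT controls in the same direction, by -0.42 in G793A mice on PLX3397 and -0.37 with PLX5622 (p = 0.0286 each, exact permutation test). Of these 8 genes, 0 were called by edgeR in either. At an unadjusted p under 0.05 were 5 with PLX3397 and 4 with PLX5622, against the same 1173 and 1095 of all genes. These comparisons differ in both genotype and chow. Against G793A controls, the mean of the 8 genes differed by -0.275 with PLX3397 and -0.229 with PLX5622 (p = 0.0857 each, exact permutation test). In G793A controls against WT controls it differed by -0.145 (p = 0.114, exact permutation test).

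**Figure D2:**
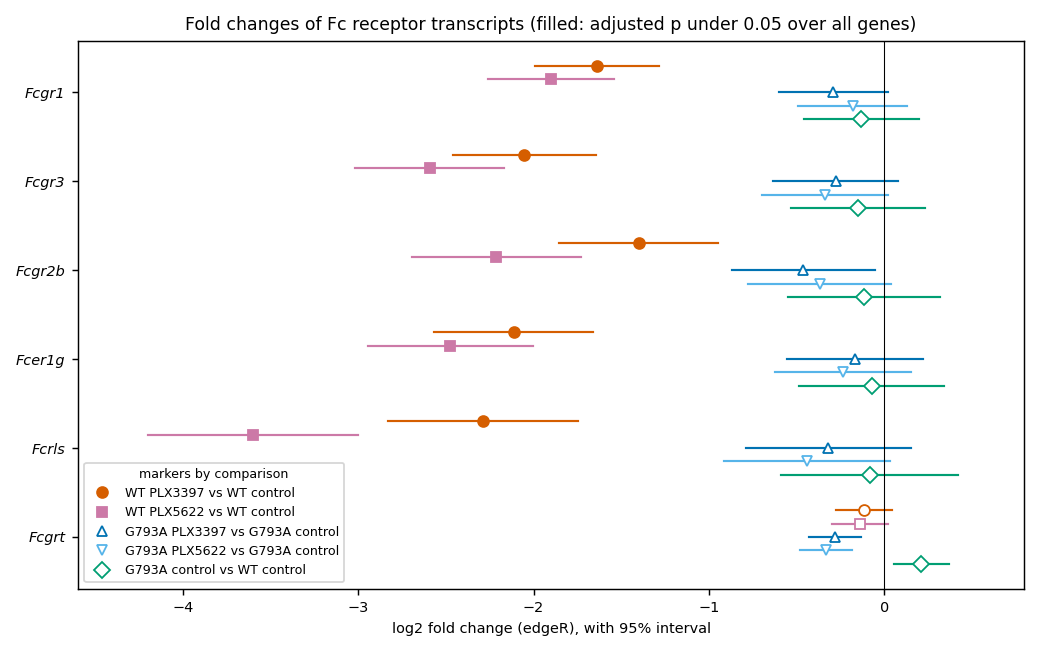
Log2 fold changes of the 6 members (edgeR) with 95% intervals in 5 comparisons, filled where the adjusted p over all genes was under 0.05. The filled points are those of Fcgr1, Fcgr3, Fcgr2b, Fcer1g and Fcrls in WT mice on an inhibitor, from -3.60 to -1.40, while the points of G793A mice lie between -0.46 and 0.21.

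Compared at the same inhibitor and dose, G793A brains held more of the receptor transcripts than WT brains. On PLX5622, 5 of 6 members were higher in G793A mice, where 1.09% of all genes were, with log2 fold changes of 3.08 ± 0.28 for Fcrls (edgeR adjusted p = 4.21e-07), 2.17 ± 0.22 for Fcer1g (edgeR adjusted p = 4.12e-07), 2.11 ± 0.20 for Fcgr3, 1.73 ± 0.23 for Fcgr2b and 1.59 ± 0.17 for Fcgr1. These 5 lay apart in the libraries, as did 2.49% of all genes in that direction. On PLX3397, 4 of 6 members were higher, where 0.932% of all genes were, with log2 fold changes of 1.89 ± 0.25 for Fcrls, 1.88 ± 0.21 for Fcer1g, 1.63 ± 0.19 for Fcgr3 and 1.22 ± 0.16 for Fcgr1. These 4 lay apart, as did 3.78% of all genes. Fcgr2b gave 0.83 ± 0.21 there (edgeR adjusted p = 0.0676), and its groups overlapped at 1.94 CPM in G793A mice and 1.96 CPM in WT mice. Fcgr2b passed with DESeq2 (adjusted p = 0.00527) and with limma-voom (adjusted p = 0.0341). It also passed in edgeR without the WT library of replicate 2 on PLX3397 (log2 fold change 1.035, adjusted p = 0.0138) and without the G793A library of replicate 4 on PLX3397 (0.917, adjusted p = 0.0451). Without any other library of the compared groups Fcgr2b did not pass (edgeR adjusted p up to 0.306). Nor did it with other scaling or filters, no robust estimation, a replicate block or the compared groups alone (edgeR adjusted p = 0.0628 to 0.145). Limma on the authors' log2 values did not call it either (adjusted p = 0.101). Fcgrt gave 0.02 ± 0.07 on PLX5622 and 0.05 ± 0.07 on PLX3397, with overlapping libraries.

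The difference between genotypes in the inhibitor's effect was tested as an interaction (log2 fold change with the G793A allele, less the one with WT Csf1r). It was positive and passed the edgeR test for 4 of 6 members with PLX3397, where 0.549% of all genes did in that direction, and for 5 of 6 with PLX5622, where 0.802% did. For PLX3397 the differences were 1.97 ± 0.34 for Fcrls (edgeR adjusted p = 0.00438), 1.95 ± 0.29 for Fcer1g, 1.78 ± 0.26 for Fcgr3 and 1.35 ± 0.23 for Fcgr1, and that of Fcgr2b was 0.94 ± 0.30 (edgeR adjusted p = 0.393). For PLX5622 they were 3.16 ± 0.37 for Fcrls (edgeR adjusted p = 2.84e-05), 2.26 ± 0.27 for Fcgr3, 2.24 ± 0.30 for Fcer1g, 1.85 ± 0.31 for Fcgr2b and 1.72 ± 0.23 for Fcgr1. Fcgrt gave -0.17 ± 0.11 with PLX3397 and -0.19 ± 0.11 with PLX5622, and neither passed.

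To ask whether the receptors moved by a different amount than microglial genes, each member's log2 CPM was taken relative to the mean log2 CPM of an 8-gene microglia panel (P2ry12, P2ry13, Tmem119, Siglech, Cx3cr1, Gpr34, Sall1 and Olfml3). The panel mean was 2.34 in WT mice on PLX3397 and 1.59 in WT mice on PLX5622, against 4.39 in WT controls, a log2 difference of -2.05 with PLX3397 and -2.80 with PLX5622. Each gave p = 0.0286 in a two-sided exact permutation test, the smallest that 4 against 3 libraries allow in this design. Relative to the panel, Fcgr1 stood 0.42 above WT controls with PLX3397 and 0.88 above with PLX5622, and Fcgr2b 0.62 and 0.50 above. Fcrls stood at -0.25 against WT controls with PLX3397 and -1.16 with PLX5622, while Fcgr3 lay within 0.16 and Fcer1g within 0.24. Among the 5 members other than Fcgrt in these WT comparisons, 1 reached the smallest raw p, Fcgr1 with PLX5622 (exact permutation p = 0.0286, and 0.0571 with the panel median in place of its mean), and none of the 54 tests passed Benjamini-Hochberg adjustment (lowest adjusted p = 0.119). Between genotypes on PLX5622, G793A minus WT, Fcrls differed by 1.004, Fcgr2b by -0.60 and Fcgr1 by -0.82 relative to the panel, each without overlap (exact permutation p = 0.0286 each, adjusted p = 0.119). On PLX3397, Fcrls differed by 0.25 and Fcgr2b by -0.79 (exact permutation p = 0.0286 each, adjusted p = 0.119).

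Sall1 stood at -0.41 ± 0.18 with PLX3397 and -0.42 ± 0.18 with PLX5622, and did not pass in edgeR, whereas the other 7 panel genes fell with each inhibitor. Without Sall1 in the panel, an alternative chosen after seeing the data, Fcgr1 stood 0.65 above WT controls with PLX3397 and 1.22 above with PLX5622, Fcgr2b 0.86 and 0.84 above, and Fcrls at -0.01 and -0.82. Fcgr3 then stood 0.197 and 0.496 above and Fcer1g 0.165 and 0.575 above, with overlapping libraries. Between genotypes on PLX5622, G793A minus WT, Fcgr3 was then -0.591 without overlap (unadjusted exact permutation p = 0.0286). Fcer1g at -0.486 and Fcrls at 0.679 overlapped there. Between genotypes on PLX3397, Fcrls was then 0.052 with overlap (unadjusted exact permutation p = 0.4). Fcgr1 at -0.624 and Fcgr2b at -0.993 lay apart there (unadjusted exact permutation p = 0.0286 each). With the median of all 8 panel genes, Fcrls stood at -0.271 with PLX3397 and -1.143 with PLX5622 in WT mice against WT controls. Between genotypes with that median, Fcgr2b on PLX5622 was -0.544 with overlap (unadjusted exact permutation p = 0.0571). Fcgr1 on PLX3397 was -0.463 without overlap (unadjusted exact permutation p = 0.0286). The position of Fcrls with PLX3397 thus depended on how the panel was formed, and leaving out other panel genes was not tested.

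**Figure D3:**
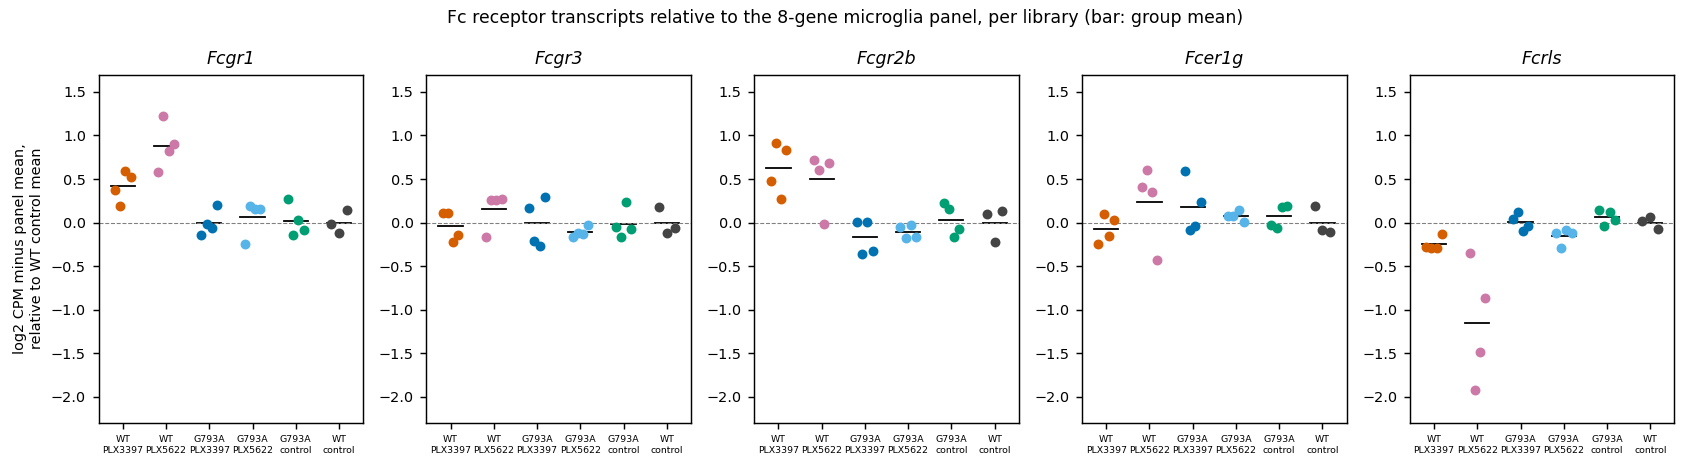
Log2 CPM of 5 members minus the mean of the 8-gene microglia panel, per library, relative to the mean of WT controls (dashed line at 0), with group means as bars. Fcgr1 lies above the line in WT mice on an inhibitor and Fcrls below it with PLX5622, at a mean of -1.16.

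The balance of the inhibitory receptor against the activating low-affinity receptor was taken as the ratio of Fcgr2b CPM to Fcgr3 CPM within a library. The ratio was 0.405, 0.553, 0.440 and 0.618 in WT mice on PLX3397 and 0.579, 0.394, 0.256 and 0.417 in WT mice on PLX5622, against 0.299, 0.292 and 0.359 in WT controls. The PLX3397 libraries lay above every control, and the PLX5622 libraries overlapped them. On the log2 scale the difference was 0.66 with PLX3397 (exact permutation p = 0.0571, adjusted over 9 comparisons 0.257) and 0.34 with PLX5622 (exact permutation p = 0.314). In G793A mice on PLX3397, the log2 ratio differed by -0.83 from that in WT mice on PLX3397 (exact permutation p = 0.0286, adjusted 0.257), with values of 0.281, 0.282, 0.380 and 0.205. The part in this ratio of reads from the common run, which cannot be assigned to 1 of the genes, was not tested.

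**Figure D4:**
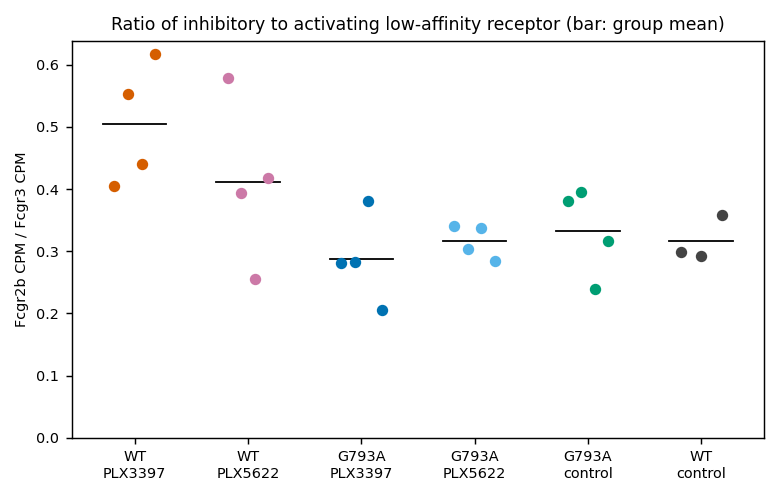
Ratio of Fcgr2b CPM to Fcgr3 CPM in each library (points) with the group mean (bar), linear axis from 0. The 4 libraries of WT mice on PLX3397 lie between 0.405 and 0.618, above the WT controls at 0.292 to 0.359.

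The genes with the most similar pattern to each member were sought among 13948 genes at a mean of 1 CPM or more, by the root mean square difference of fitted log2 fold changes against WT controls over the 5 other groups. The closest gene to Fcer1g was Hcls1 (0.05) and the closest to Fcgr3 was Tmem119 (0.08), with Laptm5 and Ctss next (0.09 each). For Fcrls they were P2ry12 (0.19), Itgam (0.20) and Siglech (0.21), and for Fcgr1 Il21r (0.10), Ptpn6 (0.11) and Cyth4 (0.11). Fcgr2b was closest to Myo1f (0.14), and Fcgrt to Rasl10b (0.03). Among the members themselves, Fcgr3 and Fcer1g lay closest at 0.14. Fcgrt lay farthest from the others, at 1.068 (Fcgr1) to 1.849 (Fcrls). Apart from Fcgrt, the widest distances were those of Fcrls from Fcgr1 at 0.82 and from Fcgr2b at 0.74.

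Part of the signalling genes downstream of the receptors fell in WT mice on the inhibitors. Of 20 kinases and activating effectors, 12 fell with PLX3397 and 13 with PLX5622, where 1.49% and 1.59% of all genes tested did so, with a median log2 fold change of -1.04 with PLX3397 and -1.10 with PLX5622, against 0.007 over all genes tested in each. Vav1, an exchange factor for Rac, fell to 0.853 CPM with PLX3397 and 0.491 CPM with PLX5622, against 3.598 CPM in WT controls. Its log2 fold change was -2.07 ± 0.22 with PLX3397 and -2.85 ± 0.24 with PLX5622. Nckap1l, a haematopoietic subunit of the WAVE complex, gave -1.73 ± 0.16 with PLX3397 and -2.27 ± 0.17 with PLX5622. Lyn, a kinase that phosphorylates the ITAM, gave -1.08 ± 0.13 with PLX3397 and -1.23 ± 0.13 with PLX5622. Dock2, another exchange factor for Rac, gave -1.65 ± 0.22 with PLX3397 and -2.33 ± 0.23 with PLX5622. Fyn, which brain cells of other types also express, gave -0.01 ± 0.05 with PLX3397 and 0.07 ± 0.05 with PLX5622. Syk, the kinase recruited by the gamma chain and named here after its values were seen, gave -0.69 ± 0.20 with PLX3397 (edgeR adjusted p = 0.127) and fell by 1.09 ± 0.21 with PLX5622 (edgeR adjusted p = 0.00251).

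Of 9 inhibitory effectors, 3 fell with each inhibitor against the same 1.49% and 1.59% of all genes, and the list's median log2 fold change was -0.489 with PLX3397 and -0.466 with PLX5622. Inpp5d, a lipid phosphatase recruited by the ITIM of Fcgr2b, stood at -1.003 ± 0.127 with PLX3397 and -1.03 ± 0.13 with PLX5622. Ptpn6, a tyrosine phosphatase, stood at -1.56 ± 0.19 with PLX3397 and -1.91 ± 0.20 with PLX5622, and Cd300a, an inhibitory receptor, at -0.86 ± 0.17 and -1.08 ± 0.18. All 5 subunits of the phagocyte oxidase fell in both. Ncf4 stood at -2.27 ± 0.37 with PLX3397 and -2.39 ± 0.38 with PLX5622, and Cyba, which other cells also express, at -0.87 ± 0.17 and -0.68 ± 0.17. Of 3 signalling adaptors (Tyrobp, Hcst and Cd247) only Tyrobp, the adaptor of Trem2, fell, at -1.71 ± 0.19 with PLX3397 and -2.59 ± 0.20 with PLX5622. Hcst and Cd247 did not pass, at a mean of 0.130 CPM and 0.584 CPM in WT controls.

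Of 10 genes in the data that were listed as possible receptor partners of the gamma chain, 5 passed the filter. Of these 5, 1 fell with PLX3397 and 2 with PLX5622, against 1.49% and 1.59% of all genes. They were the lectin receptors Clec4n in both and Clec4a3 with PLX5622 (-2.39 ± 0.36). Clec4n had 0 counts in all 4 libraries of WT mice on PLX3397, which allows up to 0.091 CPM in the shallowest library, against a mean of 0.243 CPM in WT controls. Of 13 other Fc receptor genes, the intracellular antibody receptor Trim21 had 1.38 to 2.93 CPM and the low-affinity IgE receptor Fcer2a 0.859 to 1.57 CPM over all libraries. Among the 6 tested, 0 were called with PLX3397 by edgeR, and 1 had an unadjusted p under 0.05, as 1331 of all 16209 genes did. With PLX5622, 1 was called, Fcrl1, at 0.0439 CPM against 0.368 CPM in WT controls, where 1.59% of all genes fell. Fcgr4, the remaining activating IgG receptor of the mouse, reached 0.425 CPM at most in any library. The 6 genes for the partner of Fcgrt and its endosomal route had 0 calls in edgeR with each inhibitor. With an unadjusted p under 0.05 were 1 with PLX3397 and 2 with PLX5622, against 1331 and 1367 of all 16209 genes. B2m, the partner chain of Fcgrt, gave -0.35 ± 0.10 with PLX3397 (edgeR adjusted p = 0.133).

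In G793A mice on an inhibitor, 0 of these lists' genes were called by edgeR against G793A controls, where 0.00617% of all genes were called with PLX3397 and 0.0% with PLX5622. For the interaction, 5 of 20 kinases and activating effectors and 1 of 5 oxidase subunits passed with PLX3397 (0.549% of all genes), and 7 of 20 and 2 of 5 passed with PLX5622 (0.802% of all genes), in each case with the log2 fold change higher in G793A mice.

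**Figure D5:**
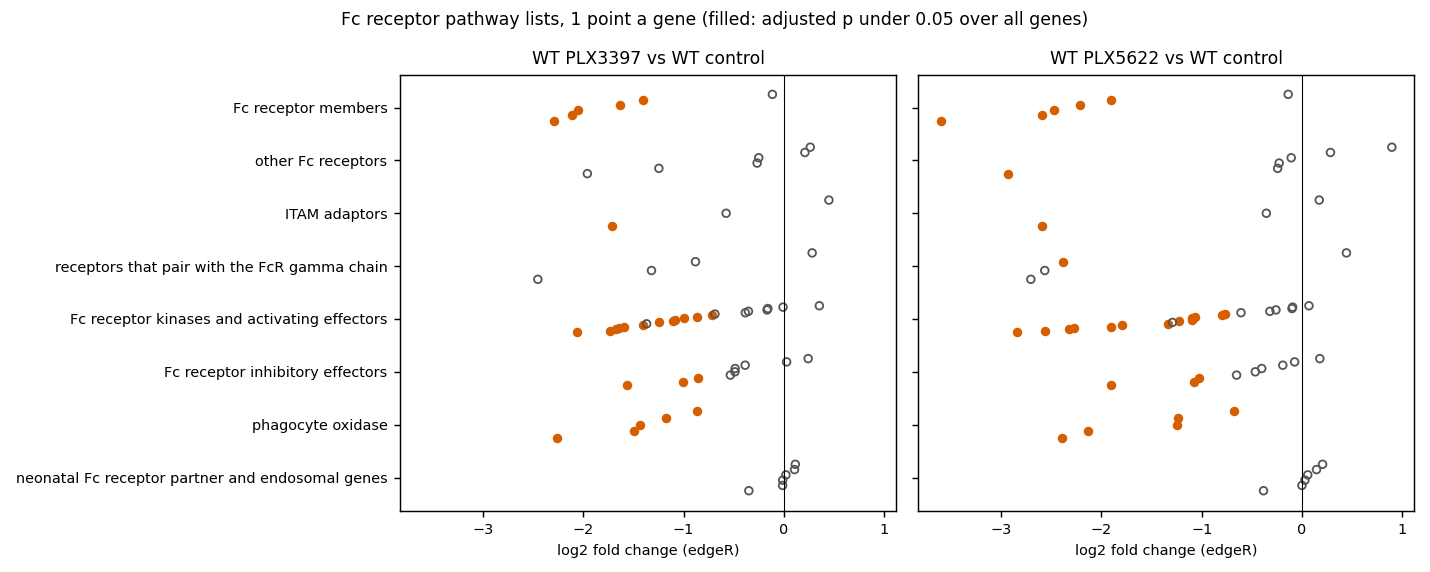
Log2 fold change (edgeR) of each tested gene of the Fc receptor lists in WT mice on PLX3397 (left) and on PLX5622 (right) against WT controls, filled where the adjusted p over all genes was under 0.05. The filled points outside the members lie between -2.27 and -0.72 with PLX3397 and between -2.93 and -0.68 with PLX5622, the endosomal genes of the neonatal receptor lie near 0, and Clec4n is left out because it had 0 counts in a group.

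Markers of other cells that carry Fc receptors were read in the same libraries. The summed level of 8 border-associated macrophage markers was 5.23 to 6.94 CPM in WT mice on PLX3397 and 5.34 to 6.67 CPM in WT mice on PLX5622, against 26.1 CPM or more in WT controls. Of them, 7 of 8 fell with PLX3397 and 6 of 8 with PLX5622, where 1.49% and 1.59% of all genes fell. In G793A mice it was 16.9 to 19.1 CPM on PLX3397 and at most 20.4 CPM on PLX5622, against 21.7 to 25.3 CPM in G793A controls, without overlap. All 8 had negative log2 fold changes there with each inhibitor, and 0 were called by edgeR, where 0.00617% (PLX3397) and 0.0% (PLX5622) of all genes were. At an unadjusted p under 0.05 were 4 with PLX3397 and 1 with PLX5622, against 1899 and 2639 of all 16209 genes. The summed level of 9 monocyte and neutrophil markers was 2.38 to 11.5 CPM in WT mice on PLX3397 and 1.2 to 10.4 CPM in WT mice on PLX5622, against 0.867 to 1.58 CPM in WT controls, where Ly6g had 0 counts. In G793A mice it was 1.62 to 10.5 CPM on PLX3397 and 6.4 to 26.7 CPM on PLX5622, against 1.4 to 3.78 CPM in G793A controls. Of the 7 tested, 0 were called by edgeR in WT mice on either inhibitor. At an unadjusted p under 0.05 were 4 with PLX3397 and 5 with PLX5622, against 1331 and 1367 of all 16209 genes. B and plasma cell markers summed to at most 1.97 CPM in any library, and endothelial markers to 179 to 245 CPM. Red blood cell markers summed to 37.2 CPM at the lowest in WT mice on PLX3397, with a median of 59.6 CPM and no overlap, against 173 to 306 CPM in WT controls. Of them, 1 of 5 was called lower (1.49% of all genes) and 5 of 5 had an unadjusted p under 0.05 (1331 of 16209 genes). In WT mice on PLX5622 they overlapped the controls, at 98.8 to 298 CPM. Pituitary markers reached 101 CPM in replicate 1 of WT mice on PLX5622, against at most 8.28 CPM in the other groups. The part of these cells in the receptor values was not tested. Of the libraries, replicate 1 of WT mice on PLX5622 had 30.8 CPM and replicate 2 of G793A mice on PLX5622 had 221 CPM of the cerebellar gene Cbln3, against a highest value of 1.73 CPM in the groups that hold neither. The counts of members called in the WT inhibitor and interaction comparisons were the same without these 2 libraries, an alternative chosen after seeing the data, and Fcgr2b then passed between genotypes on PLX3397 (0.826, edgeR adjusted p = 0.0253). Csf1r itself stood at 23.3 ± 5.12 CPM in WT mice on PLX3397, 12.2 ± 4.56 in WT mice on PLX5622, 74.4 ± 4.24 in G793A mice on PLX3397, 71.6 ± 8.59 in G793A mice on PLX5622, 81.4 ± 4.69 in G793A controls and 93.8 ± 1.23 in WT controls.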

How the data were processed

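Estimated gene counts were deposited for 23 brain libraries (stranded oligo-dT mRNA libraries, per the labels). Kallisto 0.46.1, FastQC 0.11.9, the GRCm39 build and DESeq2 1.26.0 appear in the submitters' processing notes, and how transcripts were summed to genes is not stated in these sources. The deposited expected counts are not scaled to library size, and 45.3% of the values are not whole (tolerance 1e-06), so they were rounded. The authors also deposited log2 values after variance stabilisation, used as an alternative. One entry with a blank name, 0.00828% to 0.0151% of a library, was left out.

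Counts were tested with edgeR 4.0.16 under R 4.3.3, after TMM scaling and filterByExpr (minimum count 10, minimum total 15, 16209 genes), by a robust quasi-likelihood model of all 23 libraries with 1 term per group. The threshold was 0.05 after Benjamini-Hochberg adjustment across these genes, two-sided. The SE is the size of the log2 fold change over the root of F. CPM uses the scaled library sizes. Panel and ratio tests were exact permutation tests over libraries, on log2 CPM with a prior count of 0.5. Intervals cover the spread between libraries, and limits for 0 counts (3 counts per library) counting error only.

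The members and gene lists were chosen with earlier results of these data known. Genes named are the members, up to 4 per list with the smallest p among those past the threshold with either inhibitor, panel genes, and the 3 most similar genes per member; genes named that did not pass were chosen after their values were seen. A few genes covered by it are not reported here. Transcript lengths, shared words and promoters come from GENCODE M21 and RefSeq on GRCm38, not the build of the files, matched by symbol for 6 of 6 members.

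Alternatives were DESeq2 1.42.0, limma-voom (limma 3.58.1), limma on the deposited log2 values, RLE scaling, a stricter filter (mean of 1 CPM) or none, the fit without robust estimation, only the compared groups, a replicate block and each library left out in turn, and, chosen after seeing the data, the panel without Sall1 and the libraries with cerebellar transcripts left out. No replicates were duplicates (chi-square over degrees of freedom 6.05 to 76.4). The test was checked on simulated data of 16089 genes for WT mice on PLX3397 against WT controls. It called 42 of 50 genes at a log2 change of -1, 49 of 50 at -2, 42 of 50 at 1 and 50 of 50 at 2. Of 15889 unchanged genes it called 14, false calls to be set against those true ones.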

Additional observations from a re-analysis of the deposited data

Results flagged for a closer look

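The Fcer1g level of replicate 1 in G793A mice on PLX3397, 5.37 CPM, stood apart from the other 3 libraries of its group at 3.96 to 4.01 CPM. Its gap took 0.966 of the group's range. The share that marks a gap in a group of 4 is passed by chance in about 1 in 20 groups, and 30 groups were examined.

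The inhibitor's log2 fold change differed between genotypes, by the interaction test in edgeR, for 4 members with PLX3397 and 5 with PLX5622. The difference, G793A less WT, was 1.35 for Fcgr1, 1.78 for Fcgr3, 1.95 for Fcer1g and 1.97 for Fcrls with PLX3397. With PLX5622 it was 1.72 for Fcgr1, 1.85 for Fcgr2b, 2.26 for Fcgr3, 2.24 for Fcer1g and 3.16 for Fcrls.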

How the results depend on the processing

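The number of members called stayed within 1.5 times its value in every alternative run but 1 of 207: without the G793A control library of replicate 2, 1 member (Fcgrt) was called in G793A mice on PLX5622 against G793A controls (range 0 to 1). The labels' replicate numbers were not taken as pairs, since residuals correlated at a median of 0.00422 over 55 same-numbered pairs (-0.166 to 0.134) and 0.00234 over 165 others. Under the replicate block no count of members called moved; genes called numbered 214 in WT mice on PLX3397 (247 without the block), 249 on PLX5622 (269 without) and 0 in G793A mice on PLX3397 against WT controls (1 without). The cause of the shifts below was not tested.

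Counts of all genes called were small in comparisons of G793A mice and moved most. Against G793A controls, PLX3397 gave 0 genes with the compared groups alone and with limma on the deposited log2 values, 28 with DESeq2 and 0 to 23 with a library left out. PLX5622 gave 313 with DESeq2 and 0 to 980 with a library left out, the highest without G793A control replicate 2, which also gave 375 genes for G793A controls against WT controls (range 0 to 375). Against WT controls, G793A mice on PLX3397 gave 2 genes with RLE scaling, no filter, the 1 CPM filter and the deposited log2 values, 0 with the compared groups alone, 26 with DESeq2, 3 with limma-voom and 0 to 4 with a library left out. On PLX5622 they gave 3 with the compared groups alone, 8 with DESeq2, 1 with limma-voom and with the deposited log2 values, and 0 to 1 with a library left out. The PLX3397 interaction gave 57 genes on the deposited log2 values.

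Small fold changes turned sign. Fcgr2b in G793A against WT controls was 0.011 on the deposited log2 values, Fcgrt in G793A mice against WT controls was 0.006 with PLX3397 and 0.015 with PLX5622 there, and leaving out a library gave -0.16 to 0.055 for Fcer1g in G793A against WT controls, -0.114 to 0.02 for Fcgrt in G793A mice on PLX3397 against WT controls and -0.004 to 0.04 for Fcgrt in G793A against WT mice on PLX5622.

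Members (Fcgrt included) at a raw p under 0.05 relative to the panel numbered 2 in WT mice on PLX5622, Fcgr1 and Fcgrt. With the panel median they numbered 1 there, since Fcgr1 was lost (exact permutation p = 0.0571), 0 in G793A mice on PLX5622 against G793A controls (1 with the mean) and 1 in G793A mice on PLX3397 against WT controls (0 with the mean). Without Sall1 (chosen after seeing the data) they numbered 3 in WT mice on PLX3397 (1 with it) and 1 in G793A mice on PLX3397 against WT controls. With a library left out they numbered 0 to 1 in G793A mice on PLX5622 against G793A controls, and, in G793A against WT mice, 1 to 4 on PLX3397 (3 with all) and 2 to 5 on PLX5622 (4 with all).

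Variance stabilisation compresses low counts, so the difference of Fcgr2b and Fcgr3 on the deposited log2 values is not their CPM ratio and no evidence on it. It was 0.493 in WT mice on PLX3397, 0.461 in WT mice on PLX5622 and -0.339 in G793A against WT mice on PLX5622 (unadjusted exact permutation p = 0.0286 each), and 0.021 in G793A mice on PLX5622 against G793A controls and 0.032 in G793A mice on PLX3397 against WT controls. With a library left out the log2 CPM ratio ran from -0.197 to 0.045 in G793A mice on PLX5622 against their controls, and in G793A against WT mice from -0.974 to -0.678 on PLX3397 and from -0.542 to -0.155 on PLX5622. The unadjusted exact permutation p on PLX3397, 0.0286 with all libraries, was 0.0571 without any 1 of the 4 WT libraries or without G793A replicate 4, and on PLX5622 it was 0.0286 without WT replicate 3. Where leaving out a library left 3 against 3 or 4 against 2, exact permutation cannot reach 0.05, and values there carry no test.

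Depth limits the scarce receptors: Fcgr2b had 13.3 counts in its lowest library, so folds at that level carry wide counting error. Bulk tissue, unstated region and sex, and 3 WT controls limit the rest.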
